A study of Mus musculus with 2 samples.

Results

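The thrombospondins, tenascins and periostin are secreted proteins of the extracellular matrix. The gene set held 10 of the 31253 genes listed in the deposited matrices, taken by symbol: the thrombospondins Thbs1, Thbs2, Thbs3, Thbs4 and Comp, the tenascins Tnc, Tnn and Tnxb, and the fasciclin-domain proteins Postn (periostin) and Tgfbi. All 10 were found. They were measured in single cells of the periosteum, the tissue sheet on the outside of bone, from femurs and tibias of mice aged 8 weeks. There was 1 library of Prx1 Cre; Ai9/+ mice, called the control, and 1 of Prx1 Cre; Ai9/+; Piezo1 fl/fl mice. Both groups therefore carried the Cre driver, which acts in cells of the limb mesenchyme, and the Ai9 reporter, and both were sorted for Prx1-positive cells after enzymatic digestion and red cell lysis. The series title places the study on the balance of osteogenic and tenogenic fates of periosteal progenitors. The Piezo1 fl/fl library differed by the floxed alleles of Piezo1, a mechanically gated ion channel, and the number of mice behind a library is not given in the sources used here.

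Thrombospondins are calcium-binding proteins that bind other matrix proteins and cell-surface receptors. Thbs1 and Thbs2 form trimers, and Thbs1 can activate latent TGF-beta, whereas Thbs3, Thbs4 and Comp form pentamers, and Comp and Thbs4 are known from cartilage and tendon. Tenascins are large glycoproteins with fibronectin-type repeats. Tnc appears where tissue is remodelled or loaded, Tnn (tenascin-W) is known from osteogenic tissue, and Tnxb organises collagen in loose connective tissue. Postn, named after the periosteum, and Tgfbi, induced by TGF-beta, share fasciclin domains and bind integrins and collagens.

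The windows before the start sites of the genes that led SSPC-2-like cells (Postn and Tnn) and tendon-like cells (Thbs4) are shown, since the comparisons of cell types turn on these genes. They are 250 bases long, run 5′ to 3′ on the gene's strand, and come from RefSeq on GRCm38.p6. Capitals mark matches on either strand to GGAATG, letters bound by TEAD factors, or to TATAAA, those of a core promoter box. The other letters searched, also on either strand, were TGTGGT for RUNX factors and TGANTCA for AP-1.
Postn, chr3:54360857-54361106, plus strand: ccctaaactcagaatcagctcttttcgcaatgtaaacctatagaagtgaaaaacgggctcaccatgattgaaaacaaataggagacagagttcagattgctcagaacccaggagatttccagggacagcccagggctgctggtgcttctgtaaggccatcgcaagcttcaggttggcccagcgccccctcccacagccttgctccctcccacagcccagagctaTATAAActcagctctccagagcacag
Tnn, chr1:160153576-160153825, minus strand: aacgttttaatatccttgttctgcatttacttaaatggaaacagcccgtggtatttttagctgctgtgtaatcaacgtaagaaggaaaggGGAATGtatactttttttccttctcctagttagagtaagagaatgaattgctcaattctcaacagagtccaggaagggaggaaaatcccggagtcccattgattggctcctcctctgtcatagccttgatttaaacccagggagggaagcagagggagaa
Thbs4, chr13:92794819-92795068, minus strand: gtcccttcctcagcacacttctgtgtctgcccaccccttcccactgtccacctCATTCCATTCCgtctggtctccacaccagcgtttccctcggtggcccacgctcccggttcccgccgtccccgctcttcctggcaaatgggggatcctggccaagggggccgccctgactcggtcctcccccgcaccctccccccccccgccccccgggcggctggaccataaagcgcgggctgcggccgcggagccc
The TATAAA of Postn began 26 bases before its start site. Tnn had 1 match to GGAATG, at 160 bases, and Thbs4 had 2 overlapping matches on the reverse strand, at 197 and 192 bases. Windows were matched for 8 of the 10 genes, not for Thbs1 and Comp. Of the 8, 2 held GGAATG (Tnn and Thbs4), 3 held TATAAA (Postn, Thbs2 and Tnc), 1 held TGANTCA (Tnxb) and 0 held TGTGGT. Among all 32851 RefSeq windows the shares were 12.6%, 12.4%, 6.75% and 14.1% in the same order. These matches are letters in a window and were not tied to any level.

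By GENCODE vM21 on GRCm38, whose identifiers matched 31107 of the 31253 listed, the genes lie on 7 chromosomes. Postn is at chr3:54361109-54391037, Tnn at chr1:160085029-160153580, Tnc at chr4:63959785-64047015, Tnxb at chr17:34670535-34719815 and Tgfbi at chr13:56609523-56639562. The thrombospondins are Thbs1 at chr2:118111876-118127133, Thbs2 at chr17:14665500-14694235, Thbs3 at chr3:89215180-89226837, Thbs4 at chr13:92751590-92794818 and Comp at chr8:70373558-70382066. Exons of Thbs3 share bases with exons of Mtx1 on the opposite strand, at most 179 in any pair of exons. Mtx1 had 301 and 356 UMIs in the kept cells of the control and Piezo1 fl/fl libraries. Since the strand used in counting is not given in the sources used here, reads from Thbs3 and Mtx1 may not be told apart, and the low values of Thbs3 carry that limit.

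The control library held 6118 barcodes and 28030299 UMIs (unique molecular identifiers, 1 per captured mRNA molecule), and that of Piezo1 fl/fl mice had 7469 barcodes with 32337308 UMIs. After filters, 4418 and 5084 cells remained, with medians of 4812.5 and 4593 UMIs. The libraries shared 50 barcodes, 26 of them in kept cells of each library. Cells were clustered in each library alone, without the 10 genes and their partner genes, and named with "-like" from markers that exclude them. Of the control cells, 18.2% (17.1 to 19.4%) were SSPC-1-like, 17.4% (16.3 to 18.6%) SSPC-2-like and 4.89% (4.27 to 5.57%) tendon-like; of the Piezo1 fl/fl cells, 20.4% (19.3 to 21.5%), 7.63% (6.92 to 8.40%) and 6.77% (6.09 to 7.49%). SSPCs are skeletal stem and progenitor cells; SSPC-2 cells carry osteogenic markers such as Runx2, Alpl and Mmp13. The tendon-like cluster was led by Kera, and Scx, Tnmd and Fmod were among its markers. But SSPC-1-like cells also held the 7 tendon markers, at a summed 12966 CPM against 28821 CPM in tendon-like cells of the control. The 9 SSPC-1 markers summed to 15327 CPM in SSPC-1-like and 17591 CPM in tendon-like cells of the control. In the Piezo1 fl/fl library these sums were 10438 and 9734 CPM. Angptl7, an SSPC-1 marker, was among the leading genes of the tendon-like cluster in both libraries and of neither SSPC-1-like cluster. These types therefore shade into each other. The SSPC-1-like cluster of the Piezo1 fl/fl library scored 1.42 for SSPC-1 and 1.46 for tendon markers, and was named by a rule for near ties set after the clusters were seen. The SSPC-1-like cluster of the control scored 1.385 and 1.226. It was also a near tie by this rule, which kept the name with the higher score. Although the cells were sorted as Prx1-positive, clusters with endothelial and blood markers were present. The paper describes this sort, for the control genotype, as one of Prrx1-Ai9+ cells, which carry the reporter. Levels are given as CPM, the UMIs of a gene per 1000000 UMIs of its cell type, with exact 95% Poisson intervals in parentheses. There was 1 library per genotype, so no test was possible, and all intervals cover counting error only. A UMI counts molecules captured at the 3′ end without scaling to length, so levels are compared between cell types and libraries and not between genes.

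Of the 10 genes, 9 had the same leading type, the named type of at least 30 cells with the highest level, in both libraries. The share of all genes that did so was not computed, so this count is not read as particular to these genes. Postn, Tnn, Tnc and Thbs2 led in SSPC-2-like cells, Thbs4 and Comp in tendon-like cells, Thbs3 and Tnxb in Pi16 fibroblast-like cells (connective tissue fibroblasts marked by Pi16) and Tgfbi in macrophage-like cells. Thbs1 led in tendon-like cells of the control and in a cluster with blood markers of the Piezo1 fl/fl library, which had no counterpart of at least 30 cells in the control. The leading type was the same in all 19 alternative processings except for Thbs1 (16 of 19), Thbs3 (16), Comp (17) and Tnc (17) in the control, and Comp (16) and Tgfbi (17) in the Piezo1 fl/fl library. Together the 10 genes made up 29874 CPM of tendon-like and 25131 CPM of SSPC-2-like cells in the control, but 7373 CPM in SSPC-1-like cells and 871 CPM in endothelial-like cells. The corresponding Piezo1 fl/fl sums were 24924, 19776, 10466 and 918 CPM.

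**Figure D1:**
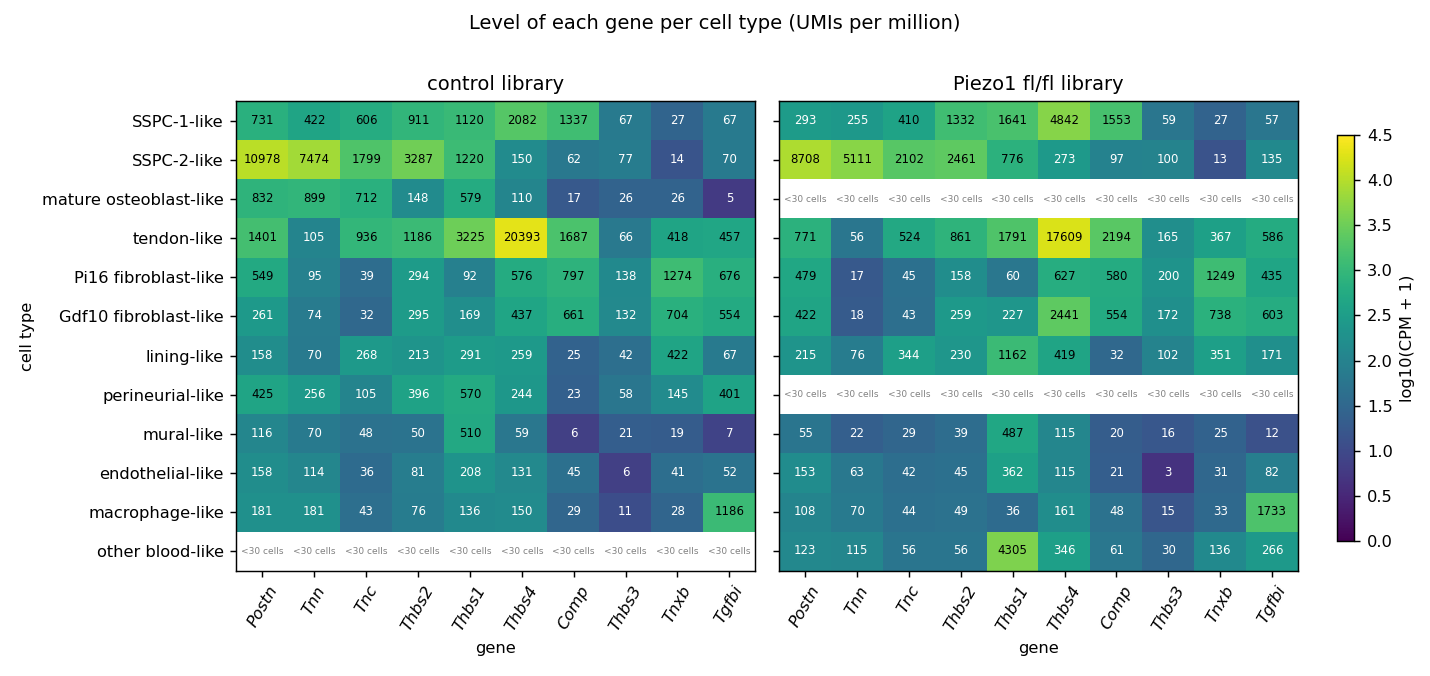
Heat map of the level of each of the 10 genes (columns) in each cell type of at least 30 cells (rows) in the control (left) and Piezo1 fl/fl (right) libraries. Numbers are CPM and colours log10(CPM + 1). The brightest cells are Thbs4 in tendon-like cells (20393 and 17609 CPM) and Postn and Tnn in SSPC-2-like cells.

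Postn, a matricellular protein of periosteum and ligament, had 10978 CPM (10890 to 11067) in SSPC-2-like cells of the control and 8708 CPM (8592 to 8825) in those of the Piezo1 fl/fl library. Tendon-like cells came next in both, with 1401 CPM (1337 to 1468) and 771 CPM (731 to 812). SSPC-1-like cells had 731 CPM (707 to 756) and 293 CPM (278 to 308), and endothelial-like cells, where Postn is taken as background, had 158 and 153 CPM. Mature osteoblast-like cells of the control, at 832 CPM, were above its SSPC-1-like cells. Pi16 fibroblast-like cells had 549 and 479 CPM and Gdf10 fibroblast-like cells 261 and 422 CPM. In the Piezo1 fl/fl library both fibroblast-like types were thus above SSPC-1-like cells. After each cell was thinned to 2500 UMIs, Postn was found in 98.8% and 98.4% of the SSPC-2-like and 19.5% and 10.6% of the endothelial-like cells deep enough, 736 and 365 of the former and 118 and 94 of the latter. Without thinning the shares were 99.4% and 99.0%, against 21.5% and 13.5%. The thinned SSPC-2-like cells of the control had a median of 25.5 Postn UMIs, with 10th and 90th percentiles of 8.00 and 43.0.

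Tnn, the tenascin known from osteogenic tissue, had most of its UMIs in SSPC-2-like cells, 90.8% of those of the control library and 85.1% of those of the Piezo1 fl/fl library. Its level there was 7474 CPM (7401 to 7547) and 5111 CPM (5022 to 5201). Mature osteoblast-like cells of the control (31 cells) had 899 CPM (810.4 to 995) and SSPC-1-like cells 422 CPM (404 to 441). Thinned cells with a Tnn UMI made up 94.97% and 96.7% of SSPC-2-like cells, and 22.3% and 3.48% of macrophage-like cells, where the gene is taken as background. Per Tnn UMI there were 1.47 Postn UMIs in SSPC-2-like cells of the control, 1.73 in SSPC-1-like, 1.38 in endothelial-like, 1.66 in mural-like and 1.00 in macrophage-like cells, but 5.81 in Pi16 fibroblast-like and 13.4 in tendon-like cells. In the control, Tnn in tendon-like cells (105 CPM) was below that of macrophage-like cells (181 CPM), so it was not distinguishable from background there.

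Tnc, a tenascin of remodelled tissue, had 1799 CPM (1763 to 1835) and 2102 CPM (2045 to 2159) within SSPC-2-like cells of the control and Piezo1 fl/fl libraries. It was more widely spread than Tnn, with 936 and 524 CPM in tendon-like cells, 606 and 409.9 CPM in SSPC-1-like cells and 268 and 344 CPM in lining-like cells, which carry the joint lubricant gene Prg4. Both fibroblast-like types were at 32.1 to 45.2 CPM over the libraries, with neighbours in the order not separated by their counting intervals. Thbs2, a trimeric thrombospondin, had 3287 CPM (3239 to 3336) and 2461 CPM (2399.9 to 2524) within this type. The next type differed, since tendon-like cells were second in the control (1186 CPM, with SSPC-1-like cells at 911 CPM) and SSPC-1-like cells second in the Piezo1 fl/fl library (1332 against 861 CPM).

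Thbs4, a pentameric thrombospondin of tendon, had 20393 CPM (20145 to 20643) in tendon-like cells of the control and 17609 CPM (17415 to 17804) in those of the Piezo1 fl/fl library. SSPC-1-like cells followed with 2082 CPM (2041 to 2124) and 4842 CPM (4779.9 to 4904). SSPC-2-like cells had 150.0 and 273 CPM, and in the control this was close to the 149.6 CPM of macrophage-like cells, with a counting interval of the ratio that included 1. After thinning, Thbs4 was found in 99.5% and 99.3% of tendon-like cells, 70.7% and 87.7% of SSPC-1-like cells, and 17.3% and 20.4% of macrophage-like cells. Its median in thinned tendon-like cells was 47.0 UMIs in control and 47.0 UMIs in Piezo1 fl/fl cells.

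Comp, cartilage oligomeric matrix protein, was less confined to tendon-like cells. Its levels were 1687 CPM (1616 to 1759.9) and 2194 CPM (2126 to 2264) there, 1337 CPM (1304 to 1371) and 1553 CPM (1518 to 1588) in SSPC-1-like cells, and 797 and 579.5 CPM in Pi16 fibroblast-like cells. It was found in 83.8% and 89.4% of thinned tendon-like cells but in 30.3% and 31.4% of thinned Pi16 fibroblast-like cells. In these fibroblast-like cells, the tenth of cells with the most Comp held 74.4% of its UMIs in control and 73.6% in Piezo1 fl/fl cells, against 38.0% and 37.0% in SSPC-1-like cells. Chondrocyte-like cells had the highest Comp level of any group, 5928 CPM (5592 to 6279) and 2627 CPM (2434 to 2830.1), but they were 14 and 28 cells, under the 30 required of a type in the order.

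Thbs1, which can activate latent TGF-beta, was spread over many types. In the control it was at 3225 CPM (3127 to 3325) in tendon-like, 1220 CPM (1191 to 1249.8) in SSPC-2-like and 1120.5 CPM (1090.3 to 1151) in SSPC-1-like cells. In the Piezo1 fl/fl library the values were 1791 CPM (1729 to 1854), 776 CPM (742 to 811) and 1641 CPM (1605 to 1677). The 88 cells with blood markers of that library, led by the neutrophil granule genes Ngp, S100a8 and S100a9, had 4305 CPM (4118 to 4498), and Thbs1 was found in 55.4% of them after thinning. Mural-like cells, the smooth muscle cells and pericytes of vessels, had 509.6 and 487 CPM. The 14 chondrocyte-like cells of the control, too few to enter the order, were at 4483 CPM (4191 to 4789.6). The chondrocyte-like cluster of the Piezo1 fl/fl library, 27 cells before marker cells were set apart, was at 852 CPM. Pi16 fibroblast-like cells had 91.8 and 59.9 CPM.

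Tnxb, the tenascin of loose connective tissue, was highest in fibroblast-like cells. It had 1274 CPM (1243 to 1306) in Pi16 fibroblast-like cells of the control and 1249 CPM (1218 to 1282) in those of the Piezo1 fl/fl library, then 704 and 738 CPM in fibroblast-like cells marked by Gdf10 and related genes, and 418 and 367 CPM in tendon-like cells. Lining-like cells, at 422 and 351 CPM, were not separated from tendon-like cells by the counting intervals. SSPC-1-like cells had 27.5 and 26.6 CPM and SSPC-2-like cells 14.04 and 13.3 CPM, at or below the 28.2 and 32.8 CPM of macrophage-like cells. Tnxb was found in 87.2% and 90.2% of thinned Pi16 fibroblast-like cells and in 2.58% and 2.74% of thinned SSPC-2-like cells. Tgfbi, the TGF-beta-induced fasciclin protein, had 1186 CPM (1134 to 1238) and 1733 CPM (1662 to 1806) in macrophage-like cells. Fibroblast-like and tendon-like cells held 435 to 676 CPM of it, and SSPC-1-like cells 67.4 and 57.1 CPM. Thbs3 was low in every type, with its highest levels among named types, 138 CPM (128 to 148) and 200.3 CPM (188 to 213), in Pi16 fibroblast-like cells. In the control, Pi16 and Gdf10 fibroblast-like cells were not separated by the counting interval for Thbs3, and SSPC-2-like, SSPC-1-like, tendon-like and perineurial-like cells were each not separated from the next lower type.

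**Figure D2:**
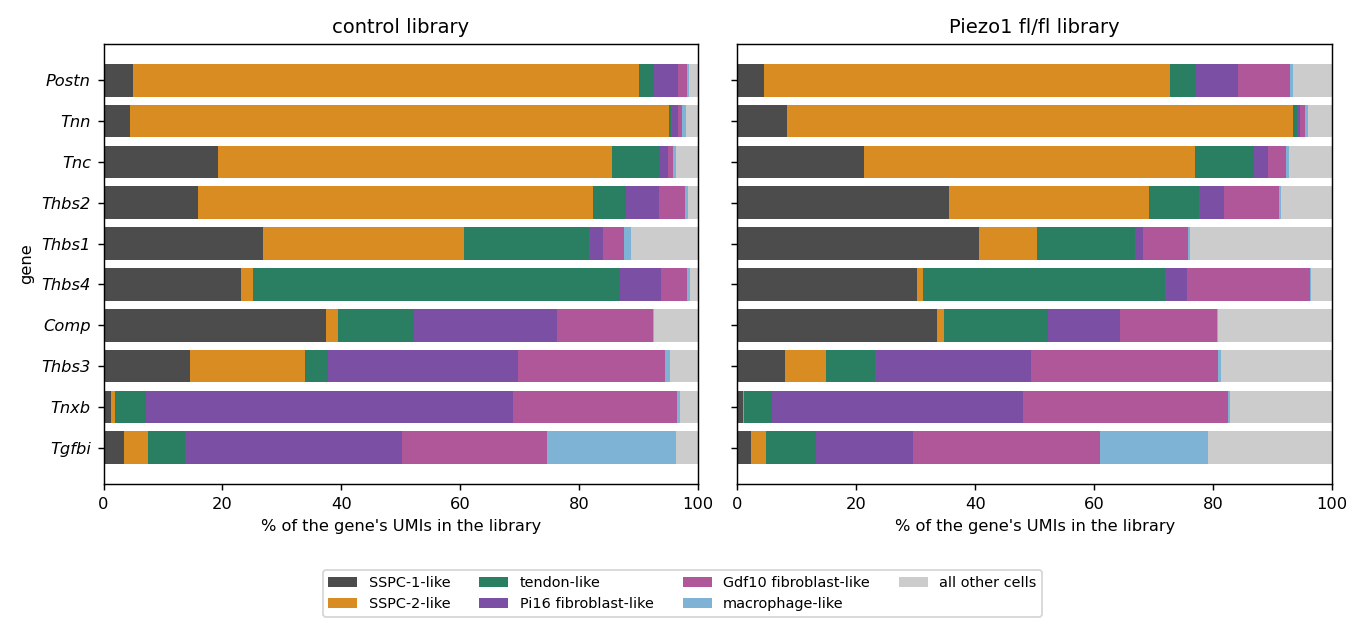
Share of each gene's UMIs (x axis, percent of the gene's UMIs among kept cells of the library) held by each cell type, for the control (left) and Piezo1 fl/fl (right) libraries. SSPC-2-like cells held 90.8% and 85.1% of Tnn UMIs, while Comp, Thbs3 and Tgfbi were spread over several types.

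The first comparison within a library asked how the osteogenic SSPC-2-like cells differ from SSPC-1-like cells in these genes. In the control, Tnn was 17.7-fold (16.9 to 18.5), Postn 15.0-fold (14.5 to 15.5), Thbs2 3.61-fold (3.49 to 3.73) and Tnc 2.97-fold (2.85 to 3.10) higher in SSPC-2-like cells. Comp and Thbs4 were lower, with log2 ratios of -4.44 (-4.60 to -4.28) and -3.79 (-3.90 to -3.69). Counting 2-fold or more, 6 of the 10 genes differed, 4 higher and 2 lower; among the 9688 genes with at least 50 UMIs in both types together, 17.8% did, 5.05% higher (489 genes) and 12.7% lower (1234 genes). With the denominator set by the median of ratios, these were 637 and 923 genes. The median log2 ratio of the 10 genes was 0.16, and that of all genes -0.22. In the Piezo1 fl/fl library, Postn was 29.8-fold (28.2 to 31.4), Tnn 20.1-fold (18.9 to 21.3), Tnc 5.13-fold (4.87 to 5.40) and Tgfbi 2.36-fold (2.01 to 2.78) higher in SSPC-2-like cells. Thbs4, Comp and Thbs1 were lower, with log2 ratios of -4.15 (-4.26 to -4.04), -4.00 (-4.20 to -3.82) and -1.08 (-1.15 to -1.01). That made 7 of 10 genes, against 16% of 8951 genes (4.97% higher and 11% lower), with medians of 0.83 and -0.16. Thbs2 was 1.85-fold (1.78 to 1.91) higher there, just short of 2-fold. The sizes of these ratios moved with the clustering by more than their counting intervals. At resolution 0.8 the log2 ratio was 6.79 for Postn and 7.17 for Tnn, against 4.9 and 4.33 in the main setting. Those of Thbs4 and Comp were then -2.57 and -2.45, with directions kept. Thbs1 stayed past 2-fold in 12 of 19 alternatives and its direction turned at a clustering resolution of 0.8 (0.045 on the log2 scale), and that of Tgfbi with types set cell by cell (-0.48). The Tgfbi levels in both types were low (135 and 57.1 CPM, against 81.9 CPM in endothelial-like cells), and the Tnxb values lay at background.

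The comparison of tendon-like with SSPC-1-like cells gave another set. In the control, Tnxb was 15.2-fold (12.5 to 18.6), Thbs4 9.79-fold (9.57 to 10.0), Tgfbi 6.77-fold (5.90 to 7.80) and Thbs1 2.88-fold (2.76 to 3.00) higher in tendon-like cells, and Tnn was lower, at a log2 ratio of -2.004 (-2.27 to -1.76). Comp was 1.26-fold (1.20 to 1.32) higher, under the 2-fold mark. These 5 of 10 genes stood against 13.1% of 8605 genes, 3.09% higher (266 genes) and 10% lower (862 genes), or 363 and 677 genes with the median of ratios, with a median log2 ratio of 0.78 for the 10 genes and -0.17 for all genes. In the Piezo1 fl/fl library, 6 of 10 passed 2-fold, against 10.6% of 8692 genes (3.2% higher, 7.39% lower; medians 0.95 and -0.15). Tnxb was 13.7-fold (11.4 to 16.8), Tgfbi 10.2-fold (8.98 to 11.8), Thbs4 3.64-fold (3.58 to 3.70), Thbs3 2.82-fold (2.39 to 3.33) and Postn 2.63-fold (2.44 to 2.84) higher, and Tnn lower at -2.17 (-2.48 to -1.88). With types set cell by cell, the log2 ratios of Tnxb, Tgfbi and Thbs3 in this library were 0.44, 0.70 and 0.26, and at resolution 0.2 that of Thbs4 was 0.058, all under 2-fold. In the control, where the Tnxb, Tgfbi and Thbs4 ratios stayed past 2-fold in all 19 alternatives, Thbs1 was at 0.50 with both libraries clustered together. The 7 genes of the Pi16 fibroblast list summed to 1319 CPM in tendon-like cells and 915 in SSPC-1-like cells of the control and to 3302 and 922 CPM in the Piezo1 fl/fl library. Their part in the Tnxb, Tgfbi and Thbs3 ratios was not tested. Tnn turned to the other direction with types set cell by cell, at 0.40 in control and 0.92 in Piezo1 fl/fl cells, and lay at background in tendon-like cells. In SSPC-1-like cells, Tnxb lay at background (27.5 and 26.6 CPM). Tgfbi there was at 67.4 and 57.1 CPM, against 51.5 and 81.9 CPM in endothelial-like cells. The Tnxb and Tgfbi ratios thus rest on SSPC-1-like levels near background.

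**Figure D3:**
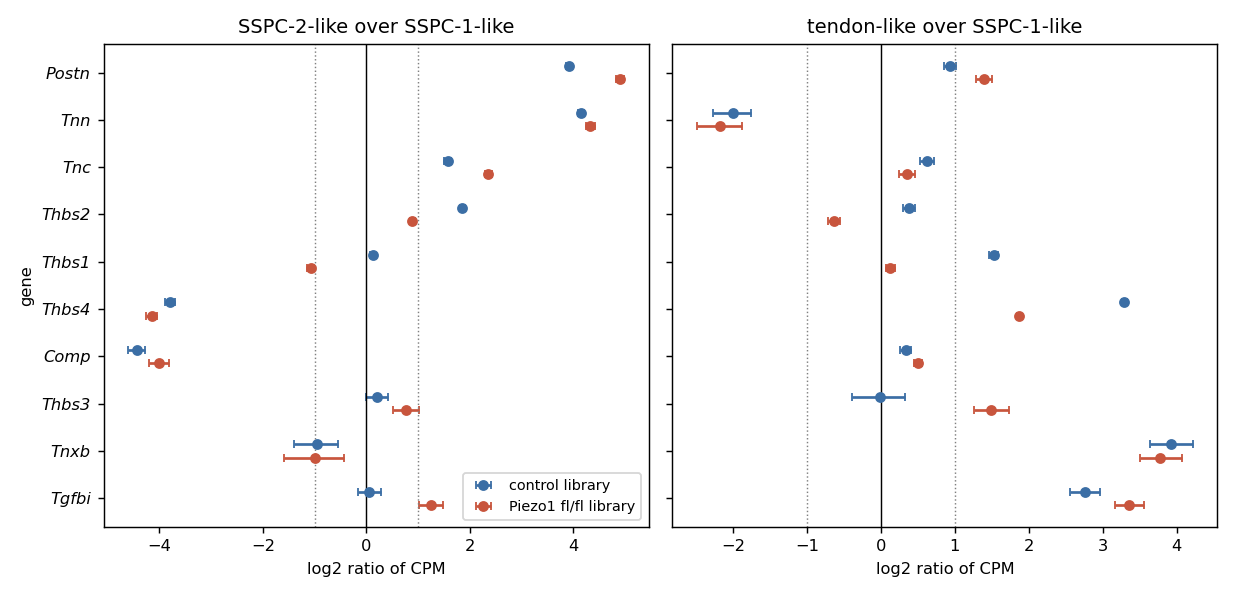
Log2 ratio of CPM (x axis) of each gene between SSPC-2-like and SSPC-1-like cells (left) and between tendon-like and SSPC-1-like cells (right), by library. Bars are exact 95% counting intervals and dotted lines mark 2-fold. Postn and Tnn lie far to the right and Thbs4 and Comp far to the left in the left panel, and Thbs4 changes sides in the right panel.

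Within SSPC-2-like cells the genes were followed along Ibsp, a bone sialoprotein of later osteogenic cells, after thinning. Thbs1 was lower with more Ibsp, from 1571 CPM (1481 to 1665) in the 290 control cells without an Ibsp UMI to 1189 CPM (1079 to 1307) in the 145 cells with 1 to 3 and 654 CPM (597 to 714) in the 301 cells with 4 or more. For Piezo1 fl/fl cells it went from 1435 CPM (1284 to 1598) in 92 cells through 1111 CPM (940.4 to 1304) in 54 to 359.8 CPM (311 to 414) in 219. Tnc was higher in cells with 4 or more Ibsp UMIs than in those with 0, by 1.25 (1.16 to 1.35) times in control and 1.37 (1.23 to 1.53) times in Piezo1 fl/fl cells. Tnn was lower, at 0.845 (0.812 to 0.879) and 0.760 (0.711 to 0.812) times the level without Ibsp. Postn differed little and in opposite directions, at 0.889 (0.861 to 0.918) and 1.15 (1.08 to 1.21) times.

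Within SSPC-1-like cells the genes were followed along Tnmd (tenomodulin), a tendon marker. Thbs4 was higher with more Tnmd in both libraries. In the control it was 1595 CPM (1515 to 1677) in 380 cells without Tnmd, 2690.2 CPM (2562 to 2824) in 244 cells with 1 to 3 UMIs and 3848 CPM (3613 to 4096) in 103 cells with 4 or more. In the Piezo1 fl/fl library the values were 3208 CPM (3096 to 3324) in 381 cells, 5079.9 CPM (4930.1 to 5233) in 343 and 10445 CPM (10130 to 10768) in 159. Comp was higher in the cells with 4 or more Tnmd UMIs than in those with 0, by 1.45 (1.29 to 1.62) and 1.60 (1.46 to 1.75) times, and Postn was lower, at 0.374 (0.294 to 0.471) and 0.341 (0.256 to 0.447) times. Thbs1 went in opposite directions: at 0.642 (0.554 to 0.740) times in the control it was lower with Tnmd, and at 2.89 (2.66 to 3.13) times in the Piezo1 fl/fl library higher. Among cells with 4 or more Tnmd UMIs, Thbs1 in the Piezo1 fl/fl library was 3.80 (3.30 to 4.40) times that of the control. In tendon-like cells Thbs4 was 20899 CPM (20461 to 21343) and 22615 CPM (22169 to 23068) in cells with 4 or more Tnmd UMIs, above the 6338 CPM (5913 to 6786) of the 52 Piezo1 fl/fl tendon-like cells without Tnmd; only 3 such cells were in the control.

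**Figure D4:**
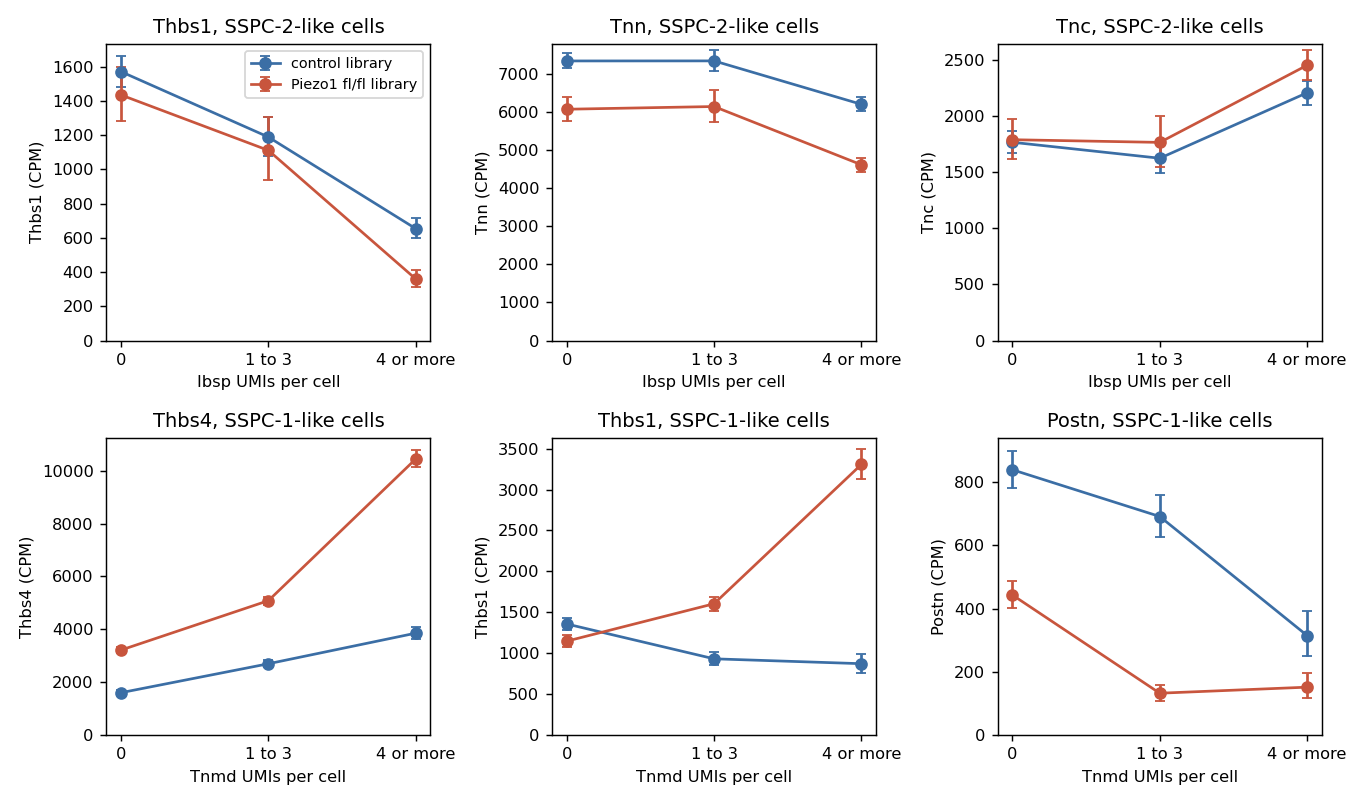
Levels (CPM after thinning each cell to 2500 UMIs) of Thbs1, Tnn and Tnc by Ibsp UMIs per cell in SSPC-2-like cells (top) and of Thbs4, Thbs1 and Postn by Tnmd UMIs per cell in SSPC-1-like cells (bottom), for both libraries. Bars are exact 95% Poisson intervals. Thbs1 is lower at each step of Ibsp in both libraries, and higher at each step of Tnmd in the Piezo1 fl/fl cells but lower in the control.

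The genes for receptors of these proteins, other matricellular proteins and their binding partners were counted from lists. Among receptors, SSPC-2-like against SSPC-1-like cells of the control had 2 higher and 4 lower among 16 genes with at least 50 UMIs, led by log2 ratios for Itga2 -4.58, Ptprz1 3.86 and Itga1 -3.02. Itga2 and Itga1 encode subunits of collagen-binding integrins and Ptprz1 a receptor phosphatase that binds tenascins. In the Piezo1 fl/fl library the count was 1 higher and 4 lower among 16, led by Ptprz1 3.65, Itga2 -3.41 and Itga1 -3.23. Tendon-like against SSPC-1-like cells gave 2 higher and 1 lower among 16 in the control (Itga2 3.92, Cacna2d1 2.42 and Ptprz1 -1.03) and 3 higher and 1 lower among 16 in the Piezo1 fl/fl library (Itga2 2.80, Cacna2d1 1.71 and Ptprz1 -1.43). Cacna2d1 is a calcium channel subunit that binds thrombospondins. Itgb1 and Itgav, the common integrin subunits, were within 2-fold in all 4 of these comparisons.

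Of the other matricellular genes, SSPC-2-like cells of the control had 2 higher and 7 lower among 13, beside 5.05% higher and 12.7% lower of all genes (Ccn3 -6.37, Spp1 4.58 and Smoc1 -4.07) and those of the Piezo1 fl/fl library 4 higher and 6 lower among 12, beside 4.97% and 11% (Ccn3 -6.88, Spp1 5.00 and Ccn2 -2.85). Spp1 encodes osteopontin, and Ccn3 and Ccn2 encode CCN proteins. Tendon-like against SSPC-1-like cells gave 2 higher and 4 lower among 12 (Smoc1 -4.30, Sparcl1 3.62 and Ccn5 3.12) and 2 higher and 5 lower among 12 (Smoc1 -3.05, Smoc2 -2.24 and Sparcl1 2.09). Of the binding partners, such as collagens and TGF-beta ligands, SSPC-2-like cells had 6 higher and 3 lower among 10 in the control (Matn4 -5.33, Tgfb2 3.24 and Col14a1 -2.54) and 4 higher and 3 lower among 10 in the Piezo1 fl/fl library (Matn4 -4.12, Tgfb2 2.57 and Col14a1 -2.37). For tendon-like cells the counts were 1 higher and 2 lower among 9 (Matn4 -1.78, Fn1 1.11 and Tgfb3 -1.03) and 4 higher and 3 lower among 9 (Matn4 -3.54, Fn1 1.77 and Matn2 1.30). The shares of all genes past 2-fold in these comparisons are those given for the 10 genes.

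Between the libraries, Piezo1 itself had 132 UMIs in the control (5.18 CPM, 4.33 to 6.14) and 69 in the Piezo1 fl/fl library (2.41 CPM, 1.88 to 3.06). Its counts within SSPC-2-like cells were 33 and 4 UMIs (6.10 and 1.61 CPM). The labels do not name the deleted exons, and UMIs tag the 3′ end, so these counts do not check the genotype. The fold between libraries compares 2 libraries, and the genotype and all other differences between them cannot be told apart.

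Over all kept cells, Postn went from 2736 CPM in the control to 1106 CPM in the Piezo1 fl/fl library, Tnn from 1748 to 521 CPM, Tnc from 576 to 328 CPM and Thbs2 from 1050.5 to 635 CPM. Thbs4 went from 1641 to 2713 CPM and Thbs3 from 84.7 to 125 CPM, with the other 4 genes within 0.897 to 1.21 times the control. The share of UMIs in SSPC-2-like cells was 21.2% in control and 8.68% in Piezo1 fl/fl cells. With the control level of each of the 11 cell groups found in both libraries held fixed and their shares of UMIs set to those of the Piezo1 fl/fl library, Postn would be 1516 CPM, Tnn 889.7 CPM and Tnc 395 CPM. Over the same groups the measured levels were 2761, 1765 and 583 CPM in control and 1193, 584 and 364 CPM in Piezo1 fl/fl cells. For Thbs4 the fixed-level value was 2114 CPM, against 1662 and 2993 CPM measured.

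Within SSPC-1-like cells, Thbs4 was 2.33-fold (2.27 to 2.38) higher in the Piezo1 fl/fl library and Postn lower, at a log2 ratio of -1.32 (-1.41 to -1.23). These 2 of 10 genes passed 2-fold, against 4.19% of 9662 genes, with a median log2 ratio of -0.12 for the 10 genes and -0.05 for all. The Thbs4 difference was present at each Tnmd range, at 2.01 (1.89 to 2.14), 1.89 (1.78 to 2.00) and 2.71 (2.53 to 2.91) times the control in cells with 0, 1 to 3 and 4 or more Tnmd UMIs. Without cells of 4 or more Tnmd UMIs, unthinned and outside the tendon-like type, a choice made after seeing the data, it was 0.98 on the log2 scale and so under 2-fold, as it was at resolution 0.8 (0.93) and with both libraries clustered together (0.88). Beside the Postn difference, the 7 SSPC-2 markers summed to 876 CPM in SSPC-1-like cells of the control and 521 CPM in those of the Piezo1 fl/fl library, with none at 0; their part in it was not tested. The tenth of SSPC-1-like cells with the most Postn held 68.5% of its UMIs in control and 86.6% in Piezo1 fl/fl cells.

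In SSPC-2-like cells, 0 of 10 genes passed 2-fold between the libraries, against 3.29% of 8765 genes (medians 0.08 and 0.02). The log2 ratios ran from -0.65 (-0.73 to -0.58) for Thbs1 to 0.94 (0.73 to 1.16) for Tgfbi; Postn was at -0.33 (-0.36 to -0.31), Tnn at -0.55 (-0.58 to -0.52) and Tnc at 0.22 (0.18 to 0.27). The Thbs1 difference was not present at every Ibsp range, at 0.913 (0.805 to 1.03) times the control without Ibsp and 0.550 (0.464 to 0.651) times at 4 or more Ibsp UMIs. In tendon-like cells, 1 of 10 passed, Thbs3 at 2.48-fold (1.95 to 3.21), against 5.83% of 6280 genes (medians -0.34 and -0.0048). It was under 2-fold at resolution 0.8 (0.91 on the log2 scale), with both libraries clustered together (0.88) and with types set cell by cell (0.35). Beside it, the 7 Pi16 fibroblast markers in tendon-like cells went from 1319 to 3302 CPM and the 7 tendon markers from 28821 to 19402 CPM; their part in it was not tested. Thbs4 there was at -0.21 (-0.24 to -0.19) and Thbs1 at -0.85 (-0.92 to -0.78) on the log2 scale. These counts moved with the clustering, to 3 of 10 in SSPC-2-like cells at resolution 0.8 and to 7 of 10 in tendon-like cells at resolution 0.2.

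Pi16 fibroblast-like cells were 1 cluster led by Pi16 in control and 2 in Piezo1 fl/fl cells, led by Slurp1 (364 cells) and Pi16 (308 cells). These 2 differed in Comp (879 and 79.6 CPM), Thbs4 (890 and 189 CPM) and Tgfbi (581 and 192 CPM). They were closer in Tnxb (1205.5 and 1322 CPM) and Postn (502 and 440 CPM). Both clusters were pooled as Pi16 fibroblast-like cells. In them, 1 of 10 passed, against 3.29% of 9451 genes (medians -0.33 and -0.01): Tnn, which went from 94.6 to 17.0 CPM. Tnn was also lower in the Piezo1 fl/fl library in macrophage-like (181 and 70.3 CPM) and endothelial-like cells (114 and 62.7 CPM), and the fibroblast levels lay below these, so they were read as background and not as expression. Tnxb, the leading gene of these cells, was at -0.03 (-0.08 to 0.02). In Gdf10 fibroblast-like cells, a comparison added with the data in view, Thbs4 was 5.58-fold (5.32 to 5.87) higher in the Piezo1 fl/fl library and Tnn lower at -2.02 (-2.34 to -1.71), against 3.01% of 9793 genes past 2-fold. Of the 2 clusters with this name in that library, the larger, of 933 cells and led by Myoc, had 3134 CPM of Thbs4. The smaller, led by Gdf10, had 148 CPM, below the 437 CPM of the control, so the higher level lay in the larger cluster only. That cluster scored 1.01 for Gdf10 and 0.92 for Pi16 fibroblast markers and was also named by the rule for near ties. This comparison was not rerun in the alternative processings. The 7 tendon markers summed to 425 CPM in control and 756 CPM in Piezo1 fl/fl cells, and among cells without a Tnmd UMI Thbs4 was 5.36 (4.84 to 5.95) times the control. A cluster of 296 Piezo1 fl/fl cells, led by Cfd and left unnamed, was outside both fibroblast-like types. Its 7 Pi16 fibroblast markers summed to 9905.5 CPM, against 12547 CPM in Pi16 and 9281 CPM in Gdf10 fibroblast-like cells of that library. The ratios of both types leave these cells out.

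Further types were compared with the data in view. In mural-like cells, Tnn and Postn were past 2-fold of 8 genes with at least 50 UMIs, both lower in the Piezo1 fl/fl cells, at -1.66 (-2.27 to -1.10) and -1.07 (-1.47 to -0.69), against 1.37% of all genes. Macrophage-like cells had Thbs1 at -1.91 (-2.41 to -1.47) and Tnn at -1.36 (-1.72 to -1.03) of 9 genes, against 4.43%, and Tgfbi, their leading gene, at 0.55 (0.46 to 0.63). A further cluster of 144 Piezo1 fl/fl cells, led by Igkc and left unnamed, was outside this type although its 7 macrophage markers summed to 11487 CPM, against 20364 CPM in the macrophage-like cells of that library. It had 109 CPM (88.5 to 132) of Thbs1 and 707 CPM (654 to 763) of Tgfbi, and the macrophage-like ratios leave these cells out. Ratios with this cluster pooled into the macrophage-like cells were not computed. The naming rule withheld the name macrophage-like from clusters with Igkc among their leading genes. Endothelial-like cells had 0 of 6 genes past 2-fold, against 3.77%. Lining-like cells (55 and 124) had 3 of 9, Thbs1 at 1.99 (1.74 to 2.26), Tgfbi at 1.32 (0.79 to 1.93) and Thbs3 at 1.25 (0.58 to 2.05), against 6.46%. The low Tnn and Postn values of the mural-like and macrophage-like cells were read as background.

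**Figure D5:**
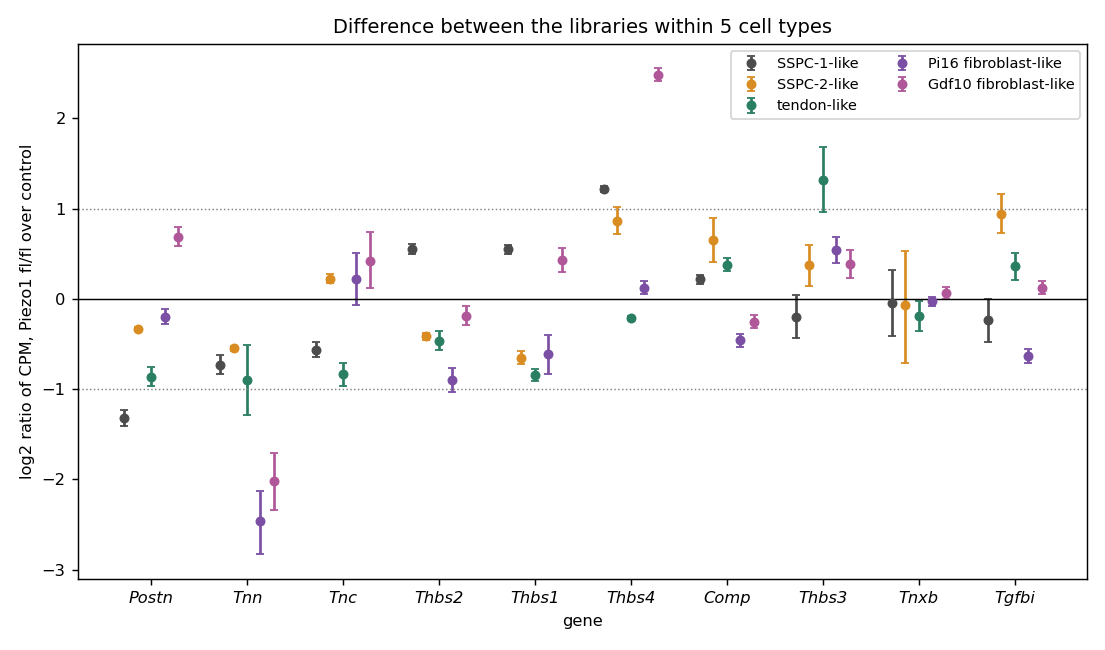
Log2 ratio of CPM (y axis), Piezo1 fl/fl over control, of each gene (x axis) within 5 cell types (colours), with exact 95% counting intervals; dotted lines mark 2-fold. Thbs4 in Gdf10 fibroblast-like and SSPC-1-like cells lies above the upper line, and Postn in SSPC-1-like and Tnn in both fibroblast-like types lie below the lower line.

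Between the libraries, the receptor and binding partner lists had 0 to 2 genes past 2-fold in SSPC-1-like, SSPC-2-like, Pi16 fibroblast-like and tendon-like cells, and the list of other matricellular genes 3 to 6. The shares of all genes are those given above. In SSPC-1-like cells, receptors were 1 higher and 0 lower among 16 past 2-fold (Itga11 1.44, Itga8 -0.75 and Cacna2d1 0.70), other matricellular genes 3 higher and 3 lower among 13 (Spock1 -2.04, Hmcn1 -1.80 and Ccn5 1.39) and binding partners 0 higher and 1 lower among 10 (Tgfb1 -1.04, Col12a1 0.78 and Col14a1 0.44). In SSPC-2-like cells, receptors were 0 higher and 1 lower among 15 past 2-fold (Cd36 -1.03, Sdc1 0.69 and Ptprz1 -0.44), other matricellular genes 2 higher and 1 lower among 12 (Ccn5 2.16, Spp1 1.61 and Hmcn1 -1.02) and binding partners 0 higher and 0 lower among 9 (Tgfb2 -0.75, Col14a1 0.62 and Tgfb3 -0.57). In Pi16 fibroblast-like cells, receptors were 0 higher and 1 lower among 15 past 2-fold (Itga1 -1.38, Itga5 0.91 and Itgb3 0.84), other matricellular genes 0 higher and 4 lower among 11 (Spp1 -2.15, Ccn5 -1.97 and Smoc2 -1.63) and binding partners 0 higher and 0 lower among 8 (Tgfb3 -0.68, Col12a1 -0.58 and Matn2 0.48). In tendon-like cells, receptors were 0 higher and 1 lower among 14 past 2-fold (Itga1 -1.02, Itga9 -0.96 and Itga8 -0.89), other matricellular genes 1 higher and 2 lower among 11 (Ccn4 -1.47, Ccn3 1.27 and Ccn5 -1.06) and binding partners 2 higher and 0 lower among 8 (Col14a1 2.46, Tgfb2 1.09 and Ccdc80 0.75). Values are log2 ratios of the Piezo1 fl/fl library over the control for the 3 genes furthest from 0 in each list.

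The genes whose levels were most like each of the 10 over the 21 types of at least 30 cells in the 2 libraries were found by Pearson's r of log2(CPM + 10) among 6820 genes. The types share libraries, and these values are a description without a test. Postn was most like Dkk3 (r = 0.91), Serinc5 (r = 0.89) and Col16a1 (r = 0.88). Tnn was most like Ostn (r = 0.92), Efna5 (r = 0.91) and Sp7 (r = 0.91). Tnc was most like Ccn4 (r = 0.91), Col16a1 (r = 0.87) and Cthrc1 (r = 0.87). Thbs2 was most like Col16a1 (r = 0.96), Dkk3 (r = 0.94) and Plagl1 (r = 0.92). Thbs4 was most like Tac1 (r = 0.93), Fgf14 (r = 0.89) and Comp (r = 0.88). Comp was nearest to Abi3bp (r = 0.96), AW551984 (r = 0.94) and Itgbl1 (r = 0.94). Tnxb was nearest to Pcolce2 (r = 0.90), Spsb1 (r = 0.90) and Clec3b (r = 0.89). Tgfbi was nearest to Sulf2 (r = 0.88), Man2a1 (r = 0.87) and Rab3il1 (r = 0.87), and Thbs3 was nearest to Col6a2 (r = 0.94), Col6a1 (r = 0.94) and Col3a1 (r = 0.93). Thbs1, with Stk26 (r = 0.69), Scube2 (r = 0.66) and Svil (r = 0.64), had no gene above 0.70. Sp7, Itgbl1 and Clec3b were among the markers used to name the types, so their values are not independent of the naming.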

How the data were processed

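Prx1-positive periosteal cells were captured on the BD Rhapsody system, 1 library per genotype (2 in all). The authors deposited UMI counts per gene and cell, not normalized; their processing notes name fastp, UMI-tools, STAR and Seurat 4.0.3, and the genome build is not given in the sources used here. No column of the files was left unused (0). Cells were required to have 1000 to 5000 genes and a mitochondrial share under 25%, limits that the study's single-cell methods state beside the cell total of another of its data sets, and blood cells were kept here. This was done after Scrublet in scanpy 1.11.5 called 46 and 67 doublets (0.829% and 0.988% of barcodes scored) and these were removed. Each library was normalized and clustered alone with R 4.3.3 and Seurat 5.3.0 (2000 variable genes less the 10 genes and their partners, 20 components, resolution 0.4). Clusters were named from marker genes, and a difference from the study's cell types may come from these rebuilt names. The name macrophage-like was withheld from a cluster with Igkc, Jchain, Ighm, Mki67 or Top2a among its leading genes. Cells with 50 or more chondrocyte-marker or 100 or more mature osteoblast-marker UMIs were set apart (5 and 29 cells of the control, and 5 and 11 of the other library, lay between 0.5 of these limits and the limits); these limits, and the rule for near ties, were set after the clusters were seen. UMIs were summed per type and divided by the type total. Ratios had 0.5 UMIs added and exact conditional intervals, and genes with at least 50 UMIs in both groups together were counted at 2-fold. Partner genes were counted by list, and the 3 with the largest ratio in each main comparison were named. The genes most like each of the 10 were the 3 with the highest r. Barcodes held at least 501 UMIs. With 1 library per genotype there were no replicates, so no p-value was computed. The calculation of ratios and intervals was run on simulated Poisson counts with known folds. These counts had no spread between cells or libraries, so they check the calculation only. The members, lists and comparisons were chosen with earlier results of these data known.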

Additional observations from a re-analysis of the deposited data

Results flagged for a closer look

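Thbs1 stood out for log2 ratios in opposite directions. Between the libraries, Piezo1 fl/fl over control, it was 1.99 in lining-like cells and -1.91 in macrophage-like cells. Between SSPC-2-like and SSPC-1-like cells it was 0.12 in the control and -1.08 in the other library. With 1 library per genotype, neither difference was tested. In macrophage-like cells Thbs1 was at 136 CPM in the control and 35.9 CPM in the Piezo1 fl/fl cells, below the endothelial-like levels of 208 and 362 CPM. The unnamed cluster led by Igkc, with macrophage markers and outside the macrophage-like type, had 109 CPM.

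Thbs3 was at 254 CPM in a cluster of the Piezo1 fl/fl library that no marker list named, of 296 cells led by Cfd and also by Adipoq and C3. This was above the 200.3 CPM of Pi16 fibroblast-like cells, the highest named type in that library. The cluster held the 7 Pi16 fibroblast markers at 9905.5 CPM, against 12547 CPM in those cells. Before marker cells were set apart it had 298 cells. Comp was then at 1772 CPM, between the SSPC-1-like (1553 CPM) and tendon-like (2194 CPM) levels. Tgfbi was at 785 CPM, between the Gdf10 fibroblast-like (603 CPM) and macrophage-like (1733 CPM) levels. No cluster led by Cfd, Adipoq and C3 was found in the control.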

How the results depend on the processing

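No paired analysis was possible because each genotype had 1 library. Over 19 alternatives, 3 of them chosen after seeing the data, 24 of the 28 ratios past 2-fold kept their direction in every one and 17 stayed past 2-fold in every one, while 24 ratios under 2-fold passed it in at least 1. Reversed log2 ratios were, with types set cell by cell, 0.40 for Tnn (tendon-like over SSPC-1-like, control), 0.92 for the same in the Piezo1 fl/fl library and -0.48 for Tgfbi (SSPC-2-like over SSPC-1-like, Piezo1 fl/fl), and, at resolution 0.8, 1.09 for Tnn (tendon-like over SSPC-1-like, Piezo1 fl/fl) and 0.045 for Thbs1 (SSPC-2-like over SSPC-1-like, Piezo1 fl/fl). The cause was not tested. The count of genes past 2-fold moved as follows. Tendon-like over SSPC-1-like in the Piezo1 fl/fl library gave 3 cell by cell. Between the libraries, SSPC-1-like cells (2) gave 1 when clustered together, 4 cell by cell and 1 without cells of 4 or more Tnmd UMIs outside the tendon-like type. SSPC-2-like cells (0) gave 3 at resolution 0.8, 2 with 500 to 6000 genes, 2 under 10% mitochondrial UMIs, 2 with the genes kept as features, 2 cell by cell, 1 thinned and 4 at a fold of 1.5. Pi16 fibroblast-like cells (1) gave 4 at resolution 0.8, 2 when clustered together, 2 with marker cells left in their clusters, 2 cell by cell, 2 thinned and 4 at a fold of 1.5. Tendon-like cells (1) gave 2 at resolution 0.8, 7 at resolution 0.2, 2 with 500 to 6000 genes, 4 under 10% mitochondrial UMIs, 4 with doublets kept, 2 with the genes kept as features, 2 cell by cell, 2 as a mean over cells, 2 thinned and 5 at a fold of 1.5. Postn in SSPC-1-like cells stayed past 2-fold between the libraries in all 19, from -1.14 to -3.59 on the log2 scale.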
